A study of Mus musculus with 8 samples.

Results

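The chromatin immunoprecipitation sequencing (ChIP-seq) lists described here hold the genomic sites at which an antibody against the histone demethylase KDM4B recovered more DNA than background, in cells with and without the Kdm4b gene. All peaks of both deposited lists were taken: 32017 from wild-type (WT) cells and 35 from knockout (KO) cells, 32052 of the 88367 peaks in the 6 lists of the series. The cells were primary mesenchymal stem cells from mouse bone marrow, stromal cells able to give rise to bone, cartilage or fat, and all of them had spent 4 hours in osteogenic induction. KO cells came from Prx1Cre; Kdm4bf/f mice and WT cells from Prx1Cre; Kdm4bw/w mice, so both groups carried the Cre recombinase. Cre under the Prx1 promoter acts in limb mesenchyme, and cells of another lineage in the same culture would keep the gene. The sources used here do not give age, sex or the number of animals behind each library. Each genotype had 1 KDM4B library, so no difference between genotypes was tested. Intervals are 95% exact binomial (Clopper-Pearson) intervals, cover counting error only, and treat neighbouring peaks as independent.

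KDM4B belongs to the Jumonji family of demethylases and takes methyl groups off lysine 9 of histone H3. The trimethylated form of that lysine, H3K9me3, marks compact, silent chromatin and is dense at satellite and other repeated sequence near centromeres. In mesenchymal stem cells KDM4B is known for favouring the bone fate over the fat fate. The genes under the peaks were not analysed here, because the positions are in mouse build mm9 and the gene table at hand is of GRCm38.p6. The peaks are therefore described by position, width, spacing and the other marks found at them, and the position of Kdm4b itself, which would check the genotype labels, was not examined.

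The KO list was short, and its peaks were narrower than those of the WT list. The median width was 318 bp in KO and 509 bp in WT. The middle 50% of peaks spanned 301 to 412 bp in KO and 329 to 870 bp in WT. Peaks of 1 kb or more were 2 of 35 in KO, or 5.71%, and 6386 of 32017 in WT, or 19.9%. The lower ends of the lists also differed. No WT peak was narrower than 237 bp, a width that 627 WT peaks shared, whereas 5 KO peaks fell below it, the narrowest at 181 bp. A peak caller sets its smallest width from the fragment length it estimates for a library, and the sources used here do not give the settings behind each list. The part of the calling settings in the difference between the lists was not tested.

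**Figure D1:**
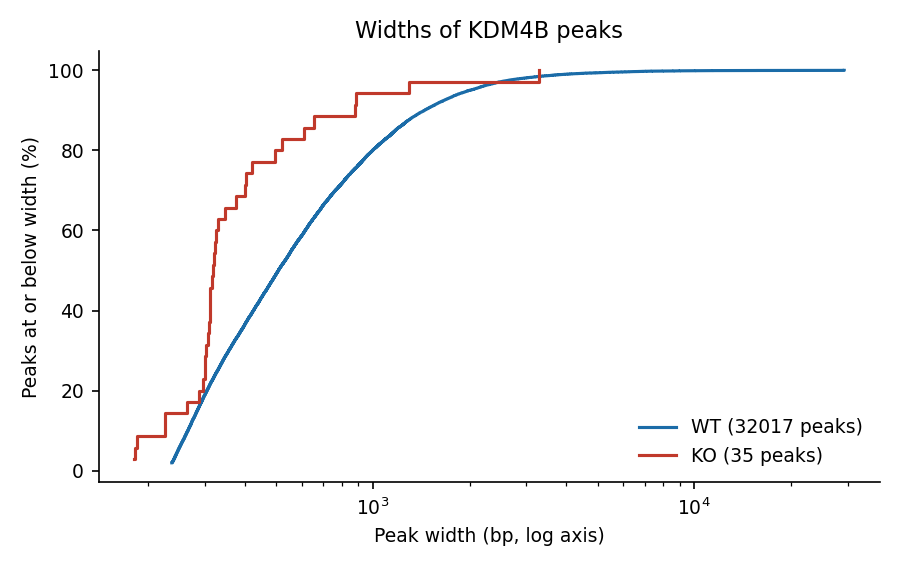
Cumulative share of KDM4B peaks (y axis, percent) at or below a given width (x axis, bp, log scale) in WT (blue, 32017 peaks) and KO (red, 35 peaks). The KO curve starts at 181 bp, below the WT minimum of 237 bp, and rises steeply near its median of 318 bp, while the WT median is 509 bp.

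The 35 KO peaks came from 15 places in the genome when peaks up to 100 kb apart were joined. They lay on 12 chromosomes and were absent from the other 9. In 3 places there was more than 1 peak, and these held 23 of the 35 peaks and 76.7% of the covered length. The other 12 places had a single peak each.

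The largest group was at the start of the assembled chromosome 9, where 17 peaks of 182 to 655 bp lay between 2999947 and 3036497. This group made up 48.6% of the list. H3K9me3 peaks inside it numbered 25 in WT, where they covered 18.8 kb of the 36.6 kb, and 26 in KO, where they covered 18.5 kb. Total histone H3 had 8 peaks there in WT and 3 in KO. In the WT list, KDM4B had no peak before 3403700 on chromosome 9, 367 kb beyond the group. Starts of chromosomes 11 and 12 each had 1 further KO peak, from 3093145 to 3093544 and from 3109872 to 3110189. Together 19 of 35 KO peaks, or 54.3%, began before 4 Mb of a chromosome, against 257 WT peaks on the autosomes and the X, or 0.803% of the WT list. The WT list had at least 1 peak before 4 Mb on all but 4 of these chromosomes.

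The second group was on chromosome 17, with 3 peaks between 39980048 and 39985837. One of them, from 39980048 to 39983335, was the widest of the KO list at 3288 bp, and it lay inside an H3K9me3 peak of 3938 bp in WT and 3947 bp in KO. H3 was called there in both genotypes, with 2 peaks in WT and 3 in KO. No WT KDM4B peak lay within 1 Mb, and the nearest was 1024.7 kb away. The place falls in a stretch of 3.33 Mb with no WT KDM4B peak.

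The third group, on chromosome 2, had 3 peaks of 403 to 1297 bp between 98502322 and 98507582. H3K9me3 had 4 peaks over the same interval in each genotype, and H3 had 4 in WT and 0 in KO. This group lay in the middle of a stretch of 7.24 Mb without a WT KDM4B peak, from 94278423 to 101518449, and the nearest WT peak was 3010.9 kb away. It was the place most remote from WT binding among the 15.

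The single peaks were on chromosomes 3, 4, 5, 6, 9, 11, 12, 13, 15 and X. Of the 12, 11 lay inside 1 H3K9me3 peak in each genotype. The one on chromosome 11 from 3093145 to 3093544 sat in an H3K9me3 peak of 19.6 kb in both genotypes. The one on chromosome 15, from 74917171 to 74917396, sat in an H3K9me3 peak of 1.80 kb in both and overlapped an H3 peak in both. On chromosome 6, the peak from 103599052 to 103599359 also overlapped H3 in both genotypes. The remaining H3K9me3 peaks around single KO peaks were 359 to 672 bp wide. These places were not all far from WT binding, since WT KDM4B peaks lay 29.6 kb from the chromosome 5 peak, 31.9 kb from the chromosome 4 peak and 37.4 kb from the peak at 35112687 on chromosome 9.

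Wherever a KO peak met H3K9me3, it was contained in it. Of the 35 KO peaks, 34 lay with all of their bases inside an H3K9me3 peak of WT cells, and the same number inside one of KO cells. The share was 97.1% (85.1 to 99.9%) in each. Among WT KDM4B peaks the background was 0.0531% overlapping H3K9me3 of WT cells and 22.8% overlapping H3K9me3 of KO cells, counting any shared base. Leaving out the chromosome 9 start left 17 of 18 KO peaks on H3K9me3 in each genotype, and leaving out all 3 chromosome starts left 15 of 16. H3 of either genotype met 11 of the 35, where the background among WT KDM4B peaks was 0.0%, which as 0 of 32017 peaks limits the share to 0.00937%. Whether the peaks of the KO list reflect KDM4B itself was not tested, and the inputs were not analysed.

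**Figure D2:**
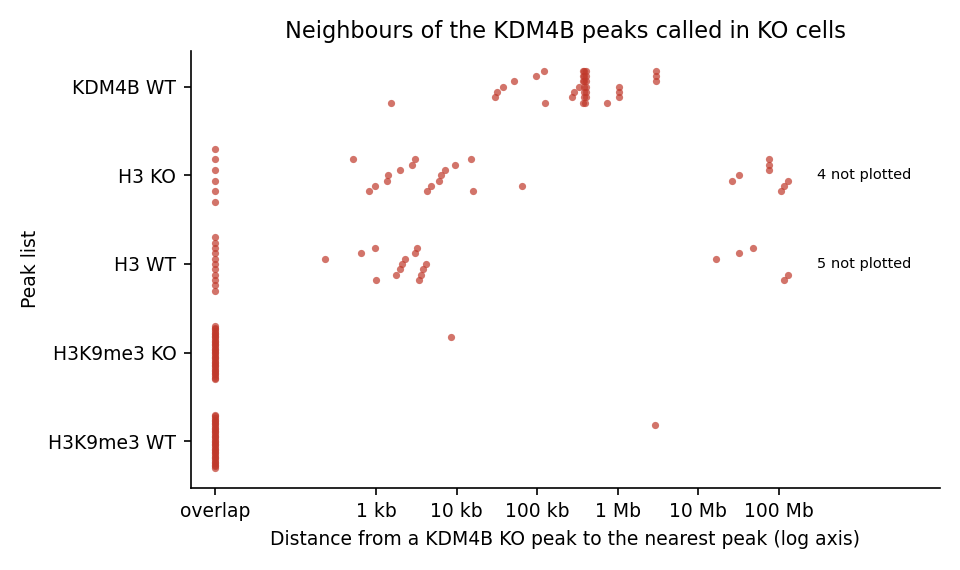
Distance (x axis, log scale) from each of the 35 KDM4B peaks of KO cells to the nearest peak of each of the other 5 lists (rows). Peaks that overlap are drawn at the left end and distances of 1 kb and more are to scale. In the H3 WT row the left end also holds the KO peak from 39984950 to 39985837 on chromosome 17. It lies 7 bp from an H3 peak without overlap. Peaks on chromosomes where a list has none are not plotted (5 for H3 WT, 4 for H3 KO). In both H3K9me3 rows 34 points overlap, whereas in the KDM4B WT row none does and the median is 378 kb.

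Seen from the mark, KO KDM4B peaks overlapped a small and wide subset of H3K9me3. They overlapped 27 of the 943 H3K9me3 peaks of WT cells, or 2.86% (1.9 to 4.14%), and 28 of the 55306 of KO cells, or 0.0506% (0.0336 to 0.0732%). The 27 WT peaks had a median width of 776 bp, against 324 bp for the remainder of that list, and the 28 KO peaks had 752 bp against 255 bp. None of the 420 WT or 35549 KO H3K9me3 peaks under 300 bp held a KDM4B peak of KO cells, counts of 0 that allow 0.714% and 0.00844%. The only KO KDM4B peaks that could lie fully inside such narrow peaks were few, since 8 of the 35 were under 300 bp. An H3K9me3 peak that contains a KO KDM4B peak must be at least as wide, and a wider peak has more bases to be met. The difference in median width and the counts of 0 are thus partly set by the containment itself. Of the H3K9me3 peaks of 1 kb or more, 11 of 98 in WT and 11 of 295 in KO held one.

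Most of these H3K9me3 peaks had nearly the same edges in both genotypes. Where 1 WT and 1 KO H3K9me3 peak overlapped each other and no further peak, the shifts of the left and right edges were added. For the 26 such pairs that held a KDM4B peak of KO cells, the median shift was 9.5 bp, and 23 pairs shifted by 30 bp or less. For the 266 pairs elsewhere the median was 126 bp, and 66 pairs, or 24.8%, shifted by 30 bp or less. Pairs elsewhere lacked a KDM4B peak of KO cells, but some overlapped a KDM4B peak of WT cells. Since pairs with and without a KO KDM4B peak differed in width, they were also compared by the width of the narrower peak of each pair. A wide peak paired with a narrow one was therefore not counted in the wider class. Among pairs of 300 to under 1000 bp the median shift was 9.5 bp for 16 pairs with a KO KDM4B peak and 63.0 bp for 153 pairs without one. Among pairs of 1 kb or more it was 9.5 bp for 10 pairs with one and 54.0 bp for 17 pairs without. Both peaks of a pair with a KO KDM4B peak contain that same peak, which leaves their edges less room to differ. Pairs elsewhere need share only 1 bp. The smaller shifts are thus partly set by the containment, and the comparison by width does not remove this. The 1 WT peak left out of these pairs, 1828 bp wide at the chromosome 9 start, faced 2 KO peaks of 1008 and 717 bp. The largest shifts among pairs with a KO KDM4B peak, 190 and 263 bp, were both at the chromosome 9 start. Without that group the median over 16 pairs was 9.0 bp. In one example, the H3K9me3 peak on chromosome 9 from 35112657 to 35113244 was 588 bp wide in WT and 594 bp wide in KO. Shifts of this size came from 1 library per genotype and could not be compared with those between libraries of the same genotype.

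**Figure D3:**
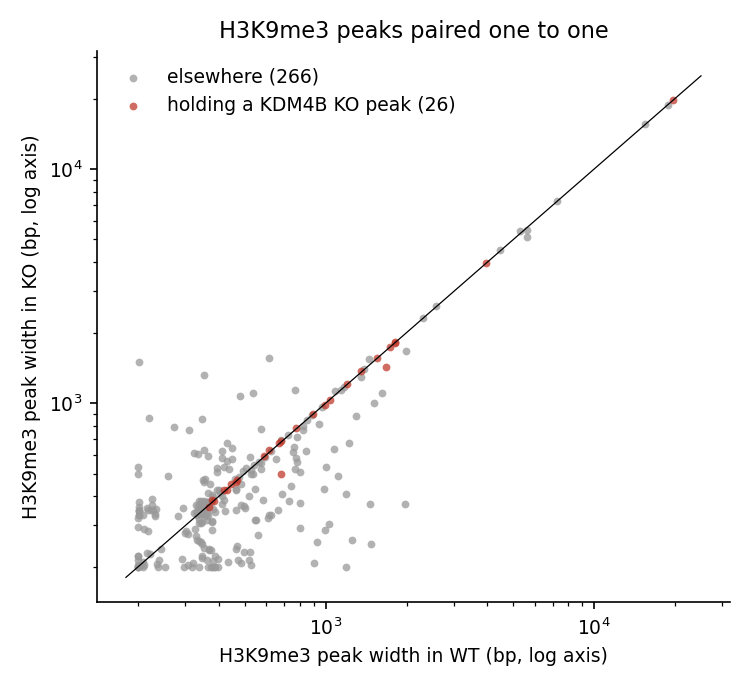
Width of H3K9me3 peaks in WT (x axis, bp, log scale) and KO (y axis, bp, log scale) for peaks that overlap one to one; the line marks equal widths. The 26 pairs that hold a KDM4B peak of KO cells (red) lie on or close to the line, and many of the 266 pairs elsewhere (grey) lie off it.

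In the H3 table of WT cells, the peaks that overlapped KO KDM4B peaks had low enrichment. The authors' fold enrichment over local background was 1.63 to 3.66 (median 2.34) for the 11 H3 peaks that overlapped a KO KDM4B peak. It was 1.88 to 16.6 (median 7.2) for the other 27 H3 peaks, of which some lay between the KO peaks of the chromosome 9 start, with up to 7.88. A fold enrichment was available for that list alone, so the KDM4B peaks themselves could not be ranked by strength.

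A single KO peak stood outside H3K9me3. It lay on chromosome 9 from 120868443 to 120868668 and was 226 bp wide. No H3K9me3 peak of WT cells was closer than 2913.4 kb, and the nearest of KO cells was 8.47 kb away. It had 10 WT KDM4B peaks within 100 kb and 62 within 1 Mb, against 0 to 8 and 0 to 31 for the other 14 places. The nearest of them, from 120870214 to 120870705, was 492 bp wide and 1.54 kb away, and on the other side the next was 21.5 kb away. It was the only one of the 35 KO peaks with a WT KDM4B peak within 10 kb.

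The distance from KO peaks to WT binding varied widely. Of the 35, 6 were within 100 kb of a WT peak and 29 within 1 Mb, and the farthest was 3015.2 kb away. The 1 Mb windows that held the 15 places had a median of 4.0 WT peaks and at most 28, against a median of 6.0 over all 2584 windows. WT peaks were missing from 2 of these 15 windows, or 13.3%, and from 25.9% of all windows. By this count, an absence of WT peaks did not set the windows with KO peaks apart. By distance, 9 of the 15 places had no WT peak within 100 kb, and 8 lay in stretches of 1 Mb or more without one. The reading thus depends on the measure, and none was tested.

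In WT cells, KDM4B peaks were spaced on 2 scales. Distances between neighbours had one maximum between 200 and 251 bp, with 1055 pairs, and a second between 20.0 and 25.1 kb, with 1075 pairs, in classes of equal width on a log scale. Between them the number fell to 645 pairs at 1.26 to 1.58 kb. Of 31996 neighbour distances, 32.2% were under 1 kb, 24.7% were 1 to 10 kb and 30.7% were 10 to 100 kb. The shortest was 52 bp. A larger joining distance would merge such pieces, and the number of WT peaks therefore depends on it.

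**Figure D4:**
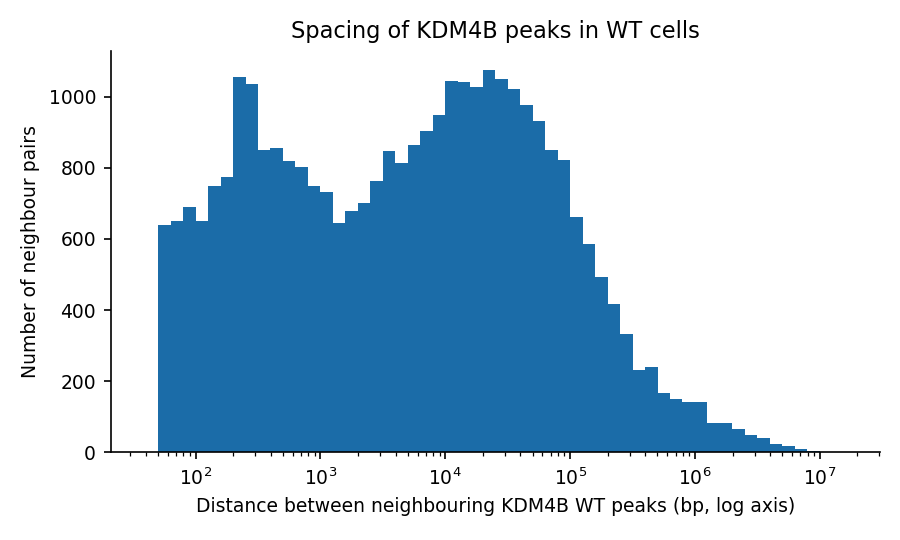
Number of neighbouring pairs of KDM4B peaks in WT cells (y axis) by the distance between them (x axis, bp, log scale). The histogram has a maximum at 200 to 251 bp and another at 20.0 to 25.1 kb, with a low of 645 pairs at 1.26 to 1.58 kb.

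Joining WT peaks up to 10 kb apart gave 13799 places. Of these, 7670 were single peaks, which were 24.0% of all WT peaks. At the other end, 371 clusters of 10 or more peaks were 2.69% of the places and held 17.9% of the peaks and 21.7% of the covered length. Clustered peaks were somewhat wider: 25.4% of peaks in clusters of 10 or more reached 1 kb, against 14.7% of single peaks, although the medians were 517 and 488 bp. These large clusters spanned a median of 32.7 kb, of which a median of 38.0% was covered, with a range of 12.6 to 88.7%. All but 3 of the 371 were on autosomes, and the 3 were on the X.

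The clusters with the most peaks were of different kinds. The first, on chromosome 3 from 79255256 to 79349595, had 57 peaks over 94.3 kb, the widest of them 2513 bp, and covered 39.9% of its span. The next, on chromosome 15 from 77588934 to 77673480, had 51 peaks with a median width of only 347 bp and covered 31.6%. The third, on chromosome 10 from 126972094 to 127082010, had 49 peaks with a median width of 1011 bp and covered 73.7%, or 81.0 kb, the largest covered length of any cluster. On chromosome 13, from 63341404 to 63417494, 39 peaks covered 78.2%. Their H3K9me3 content in KO cells differed as much. The chromosome 10 cluster held 42 H3K9me3 peaks of KO cells, the highest number among the 371, and the chromosome 15 cluster held 20, while those on chromosomes 3 and 13 held 3 each. Clusters of nearly the same size on chromosome 7, from 97277595 to 97363686 with 45 peaks and from 87855006 to 87948393 with 43, held 1 and 2. None of these 6 clusters held an H3K9me3 peak of WT cells.

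Across the list, the share of WT KDM4B peaks that overlapped H3K9me3 of KO cells was lower in large clusters than among single peaks. It was 26.3% (25.3 to 27.3%) of 7670 single peaks, 24.9% (24.0 to 25.8%) in clusters of 2 to 3, 20.7% (19.9 to 21.5%) in clusters of 4 to 9 and 17.9% (16.9 to 18.9%) of the 5739 peaks in clusters of 10 or more. Over all WT peaks it was 22.8%. Because clustered peaks were wider, the shares were also compared within 4 classes of width. Among peaks of 237 to 328 bp the share was 15.4% (13.8 to 17.2%) for single peaks and 7.07% (5.82 to 8.51%) in clusters of 10 or more. In the second class it was 18.9 and 8.72%, and in the third, of 509 to 869 bp, 27.2 and 17.1%. Among peaks of 870 bp or more it was 48.3% (45.8 to 50.8%) and 34.8% (32.5 to 37.1%). The difference had the same direction on 16 of the 19 autosomes and the opposite on chromosomes 8, 10 and 17. On the X, 0.571% of 175 single peaks and 2.86% of 35 in large clusters met the mark, too few overlaps to give a direction. On chromosome 10, 20.1% of single peaks and 29.0% of those in large clusters met the mark. These shares count peaks, and the lower share in large clusters does not mean that the clusters lacked the mark. Counted by cluster, 56 of the 371, or 15.1%, had no H3K9me3 peak of KO cells anywhere in their span, and the median was 3.0. That count was not compared with single peaks, because large clusters spanned a median of 32.7 kb.

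**Figure D5:**
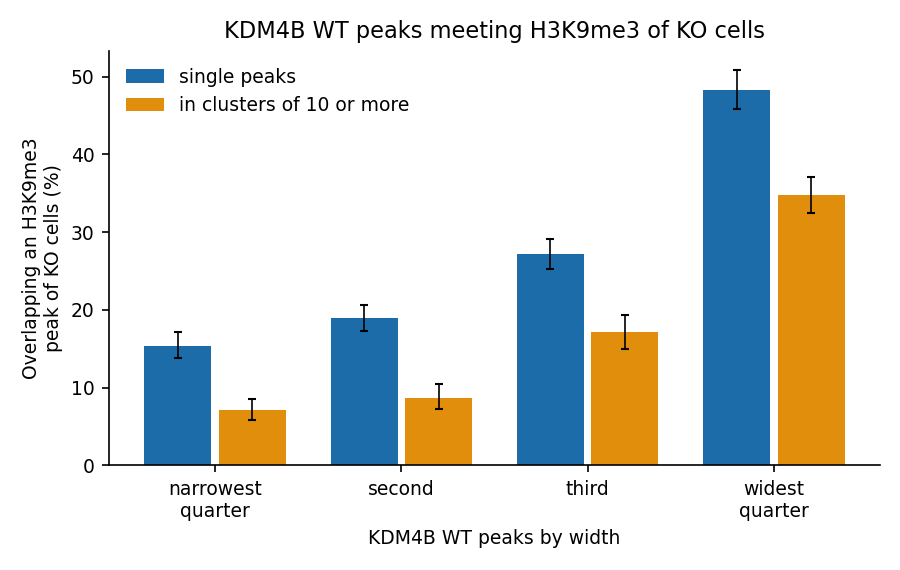
Share of KDM4B peaks of WT cells that overlap an H3K9me3 peak of KO cells (y axis, percent) for single peaks (blue) and peaks in clusters of 10 or more (orange), in 4 classes of peak width (x axis). Bars start at 0 and error bars are 95% exact binomial intervals. In each class the bar for clusters is lower, from 7.07 against 15.4% in the narrowest to 34.8 against 48.3% in the widest.

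WT peaks on H3K9me3 of WT cells numbered 17 of 32017, or 0.0531%. None was a single peak, against 24.0% of all WT peaks, but many were close neighbours and so not independent. Of the 17, 5 were in the chromosome 15 cluster from 76005896 to 76011754, within a cluster of 29 WT peaks. Pairs of neighbouring peaks on chromosomes 10, 13, 16 and 19 made up another 8. The pair on chromosome 13, from 120281653 to 120282508, contained the last WT peak of that chromosome. The widest of the 17, from 61300451 to 61304679 on chromosome 19, was 4229 bp. H3K9me3 of KO cells was also present at 12 of the 17, against 22.8% of all WT peaks.

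Long stretches of the genome had no KDM4B peak in WT cells. Distances of 1 Mb or more between neighbouring peaks numbered 519 and added up to 1182.1 Mb, or 46.3% of the length between the first and last WT peak of each chromosome. Of the 35 KO KDM4B peaks, 12 lay in such stretches, or 34.3% (19.1 to 52.2%), as did 8 of the 15 places. Among H3K9me3 peaks, 409 of the 943 of WT cells lay there, or 43.4%, and 4288 of the 55306 of KO cells, or 7.75%. The share of KO H3K9me3 peaks was below the share of length. That of WT H3K9me3 peaks cannot be set beside it. The 943 include peaks before the first or after the last WT KDM4B peak, which the length leaves out. The 17 KO peaks at the start of chromosome 9 and the 1 at the start of chromosome 12 come before the first WT KDM4B peak. They are therefore outside the length considered and could be in no such stretch, but they count among the 35. The share of 34.3% thus cannot be set beside the share of length. Without these peaks, more KO peaks lay in such stretches than outside them. The places on chromosomes 2 and 17 gave 3 peaks each to the 12, so these peaks are not independent. The difference was not tested.

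The longest stretch was on the X, from 23270960 to 33622888, with 10.4 Mb, 1 H3K9me3 peak in WT and 0 in KO. Next came 2 stretches on chromosome 14, of 8.9 Mb from 106443855 and 8.51 Mb from 87817667, which had no H3K9me3 peak in WT and 7 and 1 in KO. Of the 33 stretches of 5 Mb or more, 8 were on the X. Together the 33 had 257 H3K9me3 peaks of KO cells, or 1.18 per Mb, against 21.6 per Mb over all the length between first and last WT KDM4B peaks. They had 141 H3K9me3 peaks of WT cells, or 0.649 per Mb, against 0.31 per Mb. Of these 141, 58 lay in 1 stretch on the X from 120217536 to 126283853, at 9.56 per Mb, where KO cells had 24, or 3.96 per Mb. On chromosome 5, the stretch from 9162090 to 15940314 held 13 H3 peaks in WT and 10 in KO. The chromosome 2 stretch described above was the only one of the 33 with KDM4B peaks in KO cells.

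KDM4B peaks were alike in width across autosomes but not in spacing. The median width per autosome was 483 to 537 bp, and the share of peaks of 1 kb or more was 18.5 to 23.6%. In contrast, the median distance to the next peak was 3.34 kb on chromosome 19 and 11.0 kb on chromosome 18, and the share of peaks in clusters of 10 or more was 29.8 and 7.9% on the same chromosomes. The X stood outside the autosomal range in each of these measures, with a median width of 474 bp, 14.8% of peaks at 1 kb or more, a median distance of 18.5 kb and 7.64% of peaks in large clusters. Of its 458 peaks, 38.2% were single, against 18.7 to 28.8% on autosomes. Only 3 WT peaks were on the Y, all single and with a median width of 804 bp.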

How the data were processed

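KDM4B, H3K9me3 and total H3 were profiled by ChIP-seq in 1 WT and 1 KO library each, and the 2 inputs were not analysed here. Reads were aligned with Bowtie, and peaks were called with MACS (KDM4B) or MACS2 (H3, H3K9me3), per the submitters' processing notes, which list mm9 and hg19. The sources used here do not give thresholds, controls or depths for the KDM4B libraries, nor which of 2 KDM4B antibodies or 2 sequencing instruments each used. The deposited KDM4B lists hold chromosome, start and end only. For H3 in WT, MACS2 2.1.4 was run at a q-value threshold of 0.05, and the deposited fold enrichment is a ratio of pileup over local background, per the file headers.

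Positions were taken as mm9, since the last WT KDM4B peak lies beyond the last GRCm38.p6 gene on 9 of 21 chromosomes. The planned comparisons with promoters, gene bodies, gene lists and gene families, and the genes to be named from them, were therefore not run, and no sequence is printed. The regions described (all KO peaks, clusters with the most peaks, longest distances without a peak) were chosen after the files were seen. Members and lists were chosen with earlier results of these data known.

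Starts were read as BED positions counted from 0 and are given counted from 1. Overlap meant at least 1 shared bp. KO peaks up to 100 kb apart were joined into places, and WT peaks up to 10 kb apart into clusters. For a count of 0, the limit given is the share of 3 counts. Calculations used Python 3.11.15, numpy 2.4.6, pandas 2.3.3 and scipy 1.17.1. Overlap counts equalled those of bedtools 2.31.1 in 30 of 30 comparisons of lists, and the overlap, distance and joining steps were tested on simulated data. Alternatives were other overlap rules and, added after seeing the data, other joining distances, wider peaks, autosomes only and leaving out chromosome starts.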

Additional observations from a re-analysis of the deposited data

How the results depend on the processing

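With 1 library per genotype no result could be checked by leaving out a replicate. No paired analysis was possible for the same reason. Other promoter windows, gene sets and peak placements for gene features, gene lists and families were not run. The number of KO peaks shared with WT KDM4B was 0 of 35 at 1 bp, within 1 kb and at 50% of the shorter peak, and 1 within 10 kb. The following alternatives were added after seeing the data. The number of KO peaks on H3K9me3 was 34 in both genotypes also at 50% of the shorter peak. KO places numbered 16 when joined within 10 kb and 15 within 1 Mb. KO peaks in long stretches without WT KDM4B numbered 13 for stretches of 500 kb or more and 8 for 2 Mb or more. The share of single WT peaks, 24.0%, depends on the joining distance and the peaks used: it was 32.0% at 5 kb, 16.0% at 20 kb, 38.1% for peaks at or above the median width and 23.7% on autosomes. The share of peaks meeting H3K9me3 of KO cells in clusters of 10 or more was 0.681 times that of single peaks, and 0.664 to 0.841 times under those alternatives. Depth is unknown for both KDM4B lists, so a site absent from the KO list is one not called at an unknown depth and threshold.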
